A study of Mus musculus with 6 samples.

Results

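The mitochondrial ribosomal protein genes are the nuclear genes for the proteins of the mitochondrial ribosome. They were taken by symbol from the deposited count files: every gene named Mrpl (large subunit) or Mrps (small subunit) followed by a number and at most 1 letter. The rule found 78 genes among 55802 distinct symbols, 49 of them Mrpl and 29 Mrps. All 78 passed the filter on low counts and are among the 17662 genes tested. The rule used names only, but this set of genes was chosen with earlier results of these data known.

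The libraries came from liver of male C57BL/6 mice reared for 71 weeks. Control libraries 1 to 3 came from mice on normal chow, and PS-MP libraries 1 to 3 from mice on chow that held polystyrene microplastic (PS-MP). Sex, strain, tissue and rearing time are common to both diets, and the labels give no other treatment. The treatment field of all 6 samples names the PS-MP chow, so the diet was taken from the title and from the diet given with each sample. The labels do not give particle size or dose, and do not say that each library is a separate animal, so p-values measure only the spread between these libraries.

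Mitochondrial ribosomes translate the few messages of the mitochondrial genome, all of which encode hydrophobic subunits of the respiratory chain and ATP synthase. Their RNAs are transcribed from mitochondrial DNA, but every protein is encoded in the nucleus, made in the cytosol and imported. The small subunit binds the message and decodes it, and the large subunit joins the amino acids and releases the growing chain at the inner membrane. Many members descend from bacterial ribosomal proteins, and others were added in the mitochondrial lineage. Hepatocytes are rich in mitochondria and depend on this machinery for oxidative phosphorylation.

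The question was whether long exposure to PS-MP changed hepatic messages of this machinery. No member passed the test in either direction. For 74 of the 78 the 95% interval of the change lay within 2-fold, and summed levels of both subunits overlapped between diets.

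Total counts ran from 68357478 to 112566641 per library, and each member had between 260 and 14077 counts in every library. Control library 2 had the fewest total counts. Counts in 18S rRNA made up 2.92%, 11.2% and 1.15% in control libraries 1 to 3. In PS-MP libraries 1 to 3 they made up 1.14%, 0.599% and 0.387%, so the diets did not overlap, by a narrow margin. Genes detected numbered 23042 to 23791 on normal chow and 24004 to 24763 on PS-MP chow, also without overlap. The part of both in the members' values was not tested. Hepatocyte markers summed to 63833 to 83137 CPM (counts scaled to library size and by TMM, the trimmed mean of M values) and overlapped between diets. Summed Kupffer cell markers were 77.5 to 101 CPM on normal chow and 113 to 135 CPM on PS-MP chow. Erythroid markers summed to 210 to 380 CPM against 440 to 657 CPM, and neutrophil markers to 0.652 to 0.881 CPM against 1.38 to 4.7 CPM, with 1 of the 4 neutrophil markers at 0 in all libraries. These 3 lists did not overlap between diets, and their part in the members' values was not tested. In whole liver, fewer cells of a type and less RNA per cell cannot be told apart.

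Promoters of these genes are shown as a description, and their part in the members' values was not tested. RefSeq promoter windows on GRCm38.p6, 250 bases before to 50 bases after the start, matched 69 of the 78 members. Cores of 3 factors were searched on both strands: GCATGCGC for NRF1 (nuclear respiratory factor 1), CCGGAAG for the ETS family, which includes GABP (also called NRF2), and AAGATGGCG for YY1. The NRF1 core overlaps its own reverse complement in a palindrome. The last 150 bases before the start are printed 5′ to 3′ for 8 members, with cores in capitals.
Mrpl32 (NRF1 core in both orientations, chr13:14613038-14613187, minus strand): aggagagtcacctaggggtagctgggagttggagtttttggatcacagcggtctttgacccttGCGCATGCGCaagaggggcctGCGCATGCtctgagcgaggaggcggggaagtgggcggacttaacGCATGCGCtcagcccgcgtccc
Mrpl9 (NRF1 core in both orientations, chr3:94443186-94443335, plus strand): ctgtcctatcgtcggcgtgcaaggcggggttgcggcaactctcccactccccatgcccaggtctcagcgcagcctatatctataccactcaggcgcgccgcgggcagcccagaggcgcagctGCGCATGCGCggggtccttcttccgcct
Mrpl10 (NRF1 core, chr11:97041432-97041581, plus strand): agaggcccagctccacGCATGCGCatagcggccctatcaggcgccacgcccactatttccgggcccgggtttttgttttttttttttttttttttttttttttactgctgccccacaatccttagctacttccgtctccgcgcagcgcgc
Mrpl22 (NRF1 and ETS cores, chr11:58171514-58171663, plus strand): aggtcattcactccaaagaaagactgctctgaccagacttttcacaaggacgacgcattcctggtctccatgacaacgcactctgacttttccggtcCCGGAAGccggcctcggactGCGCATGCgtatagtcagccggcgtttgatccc
Mrpl43 (ETS core at separate places, chr19:45006443-45006592, minus strand): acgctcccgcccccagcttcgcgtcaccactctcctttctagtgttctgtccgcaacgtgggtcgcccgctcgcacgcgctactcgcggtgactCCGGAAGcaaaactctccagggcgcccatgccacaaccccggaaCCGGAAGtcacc
Mrps18a (ETS core, chr17:46110854-46111003, plus strand): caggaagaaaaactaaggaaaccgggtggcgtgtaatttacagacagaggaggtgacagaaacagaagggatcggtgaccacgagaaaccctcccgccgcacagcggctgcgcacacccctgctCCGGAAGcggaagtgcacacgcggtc
Mrps22 (ETS core, chr9:98601680-98601829, minus strand): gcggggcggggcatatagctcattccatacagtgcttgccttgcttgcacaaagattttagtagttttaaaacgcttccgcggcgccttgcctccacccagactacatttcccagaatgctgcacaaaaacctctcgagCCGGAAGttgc
Mrps11 (YY1 core, chr7:78782981-78783130, plus strand): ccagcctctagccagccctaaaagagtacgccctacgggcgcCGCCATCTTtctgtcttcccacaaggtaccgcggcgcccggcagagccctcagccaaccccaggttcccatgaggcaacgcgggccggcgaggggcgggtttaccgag
The ETS core was present in 26 of 69 members (37.7%), against 9.93% of all RefSeq genes with a window and 18.3% of the tested genes with one. The NRF1 core was present in 8 members (11.6%), against 3.05% and 5.4%. The YY1 core was also present in 8 (11.6%), against 1.64% and 3.21%. At least 1 of the 3 cores was found in 36 members (52.2%), against 13.6% and 24.7%. Such a match is a description of letters and not evidence of binding.

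Levels between genes were compared as CPM scaled by TMM (trimmed mean of M values) and divided by the length of the coding sequence in kilobases. Coding sequence is only part of a transcript, and the part differs: 1044 of 3972 bases in Mrpl3, 435 of 645 in Mrpl14. The order that follows holds for coding length only, and an order per kb of transcript was not made. Mrpl12, the stalk protein that recruits translation factors and also binds the mitochondrial RNA polymerase, was highest at 195 CPM per coding kb. Mrpl14, at the interface between subunits, followed with 144, and Mrps21, a homologue of bacterial S21, with 131. Mrps31 was lowest at 7.51, followed by Mrpl3, a core protein near the catalytic centre, at 8.86, and Mrpl18, a homologue of bacterial L18, at 11.6. The range from lowest to highest was 26-fold although the proteins are built into one particle, and 50 of the 78 lay between 20 and 80 CPM per coding kb. The median gene of the large subunit stood at 50.3, 38.2 and 51.2 CPM per coding kb in control libraries 1 to 3 and at 46.2, 43.5 and 46.1 in PS-MP libraries 1 to 3. The median gene of the small subunit stood at 39.3, 30.5 and 36.5 on normal chow and at 39.5, 37.2 and 38.1 on PS-MP chow. In each library the large subunit median was the higher, and in both subunits control library 2 was the lowest.

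**Figure D1:**
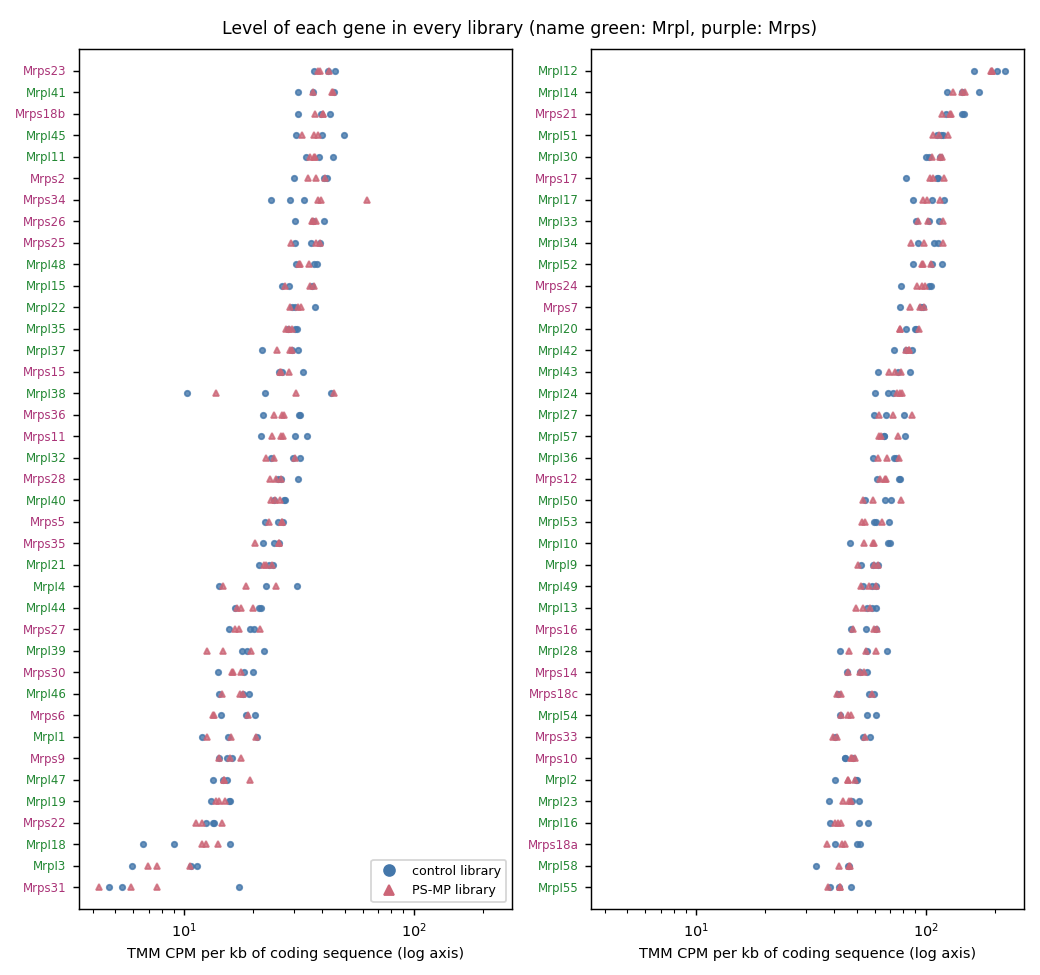
TMM CPM per kb of coding sequence on a log axis for each of the 78 genes, with circles for the 3 control and triangles for the 3 PS-MP libraries. Genes are ordered by mean level from Mrps31 (7.51) to Mrpl12 (195), and for all but Mrpl24 and Mrps34 circles and triangles overlap.

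Summed over the 49 Mrpl genes, TMM CPM was 1500, 1286 and 1603 in control libraries 1 to 3 and 1458, 1452 and 1414 in PS-MP libraries 1 to 3. Over the 29 Mrps genes it was 731, 632 and 757 on normal chow and 720, 710 and 681 on PS-MP chow. In both subunits the PS-MP values lay inside the control range. Means were 1463 ± 162 against 1441 ± 23.9 CPM for the large subunit (SD, n = 3 per diet) and 707 ± 66 against 704 ± 20.3 CPM for the small. Control library 2 set the low end of the control range and control library 3 the high end.

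The balance of the subunits moved little. Summed Mrpl divided by summed Mrps was 2.052, 2.037 and 2.118 on normal chow and 2.024, 2.045 and 2.076 on PS-MP chow, a mean of 2.07 ± 0.0431 against 2.05 ± 0.0262 (SD, n = 3). The ranges overlapped. As a plain share of counts, before TMM scaling, the 78 genes took 0.213%, 0.171% and 0.222% on normal chow and 0.227%, 0.241% and 0.225% on PS-MP chow. These shares did not overlap, with means of 0.202% ± 0.0272 and 0.231% ± 0.00872 (SD, n = 3). The rise was not particular to the members. With libraries scaled by totals alone, the median log2 fold change (PS-MP minus control) was 0.232 over all genes tested and 0.181 over the members. The same genes summed to 2230, 1918 and 2360 CPM against 2178, 2162 and 2096 CPM after TMM scaling, where the diets overlapped.

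**Figure D2:**
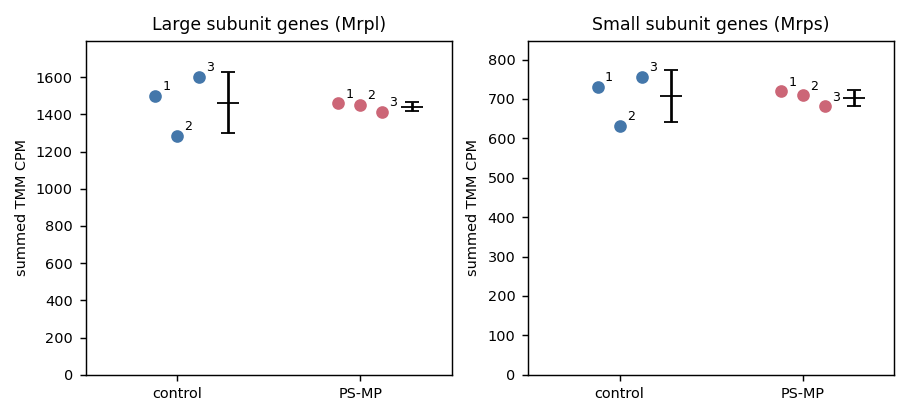
Summed TMM CPM of the 49 Mrpl genes (left) and the 29 Mrps genes (right), with 1 numbered point per library and the mean with SD beside each diet (n = 3). PS-MP libraries span 1414 to 1458 and 681 to 720 CPM, inside the control ranges of 1286 to 1603 and 632 to 757 CPM.

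Gene by gene, edgeR's quasi-likelihood test called 0 of the 78 members at an adjusted p under 0.05, where 0.0113% of all genes tested were called. DESeq2 also called 0 members, against 0.937% of all genes. With limma-voom 0 members were called, and only 1 of all 17662 genes tested. The smallest adjusted p of any member was 0.869 in edgeR, 0.516 in DESeq2 and 0.81 in limma-voom, each time for Mrps34. At an unadjusted p under 0.05 in edgeR, 1 member was higher in PS-MP (background 2.8%) and 0 were lower (background 2.58%). For 2 members the diets did not overlap, both higher in PS-MP (background 6.24%), and for 0 lower (background 4.99%). In each of these 4 counts the members' share was below that of all genes tested.

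The fitted changes were also small in size. The 95% interval lay inside 2-fold in either direction for 74 of 78 members (94.9%), against 53.6% of all genes tested. This share was 96.5% for cytosolic ribosomal protein genes and 91.1% for nuclear respiratory chain and ATP synthase genes. Levels also differed: in control library 1 the median log2 CPM was 4.58 for the members and 2.15 for all genes. The part of level in these shares was not tested. The standard error of the log2 fold change had a median of 0.154 over the members, ranging from 0.11 to 0.6, and of 0.287 over all genes. The log2 fold change, PS-MP minus control, was under 0.25 in size for 74 members and ran from -0.63 (Mrps31) to 0.7 (Mrps34). It was below zero for 48 members (61.5%; all genes 47.2%), but for 6 when libraries were scaled by their totals alone. That scaling moved the median of all genes from 0.017 to 0.232. Relative to the median of all genes, 56 members lay lower with TMM and 57 with totals alone. The members' median was -0.029 with TMM.

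**Figure D3:**
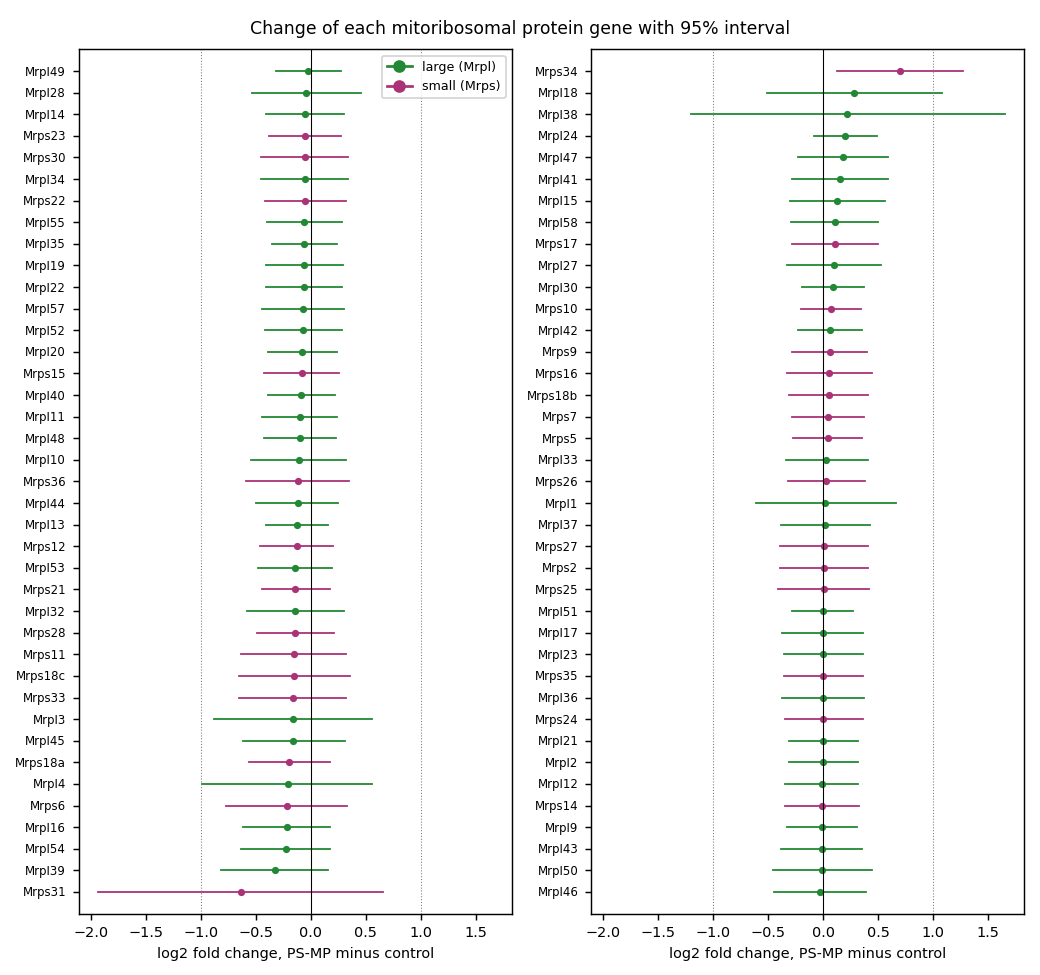
Log2 fold change of each gene, PS-MP minus control, from edgeR with TMM scaling, with its 95% interval (green Mrpl, purple Mrps; dotted lines mark 2-fold). Mrps34 alone has an interval that leaves out zero (0.13 to 1.27), and the points of 74 genes lie within 0.25 of zero.

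Among large subunit proteins with a bacterial homologue, Mrpl24, which in bacteria starts subunit assembly, was the 1 large subunit gene whose diets did not overlap. It measured 46.6, 38.9 and 44.4 CPM on normal chow and 48.4, 50 and 51.1 CPM on PS-MP chow (libraries 1 to 3 of each). Every PS-MP library was above every control library, by a small margin. The log2 fold change was 0.2 (SE 0.12), with an adjusted p of 0.961 in edgeR. Rrnad1, which overlaps Mrpl24 on the opposite strand, stood at 3.94, 4.42 and 5.13 CPM on normal chow and 7.38, 6.57 and 6.34 CPM on PS-MP chow. Whether counting used strand is not given in the sources used here, so reads of the pair cannot be told apart.

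Mrpl12 measured 123, 98.1 and 133 CPM on normal chow and 118, 116 and 117 CPM on PS-MP chow. The PS-MP libraries were nearly equal, and all lay within the control range. Its log2 fold change was -0.01 with TMM (95% interval -0.35 to 0.32) and 0.19 with totals alone. Mrpl14 measured 62.6, 54.1 and 74.1 CPM against 64.6, 62.5 and 56.8 CPM, again with PS-MP inside the control range. Mrpl16, a neighbour of the catalytic centre, measured 38.7, 28.7 and 42 CPM on normal chow and 31.3, 30.4 and 32.1 CPM on PS-MP chow. Control libraries 1 and 3 were above, and control library 2 below, all PS-MP libraries. Its log2 fold change was -0.22 (SE 0.17, adjusted p = 0.991 in edgeR). It was -0.37 without control library 2, with an adjusted p of 0.511, and -0.11 without control library 3.

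Mrpl47, a homologue of bacterial L29, measured 10, 11.2 and 11.6 CPM on normal chow and 11.2, 14.7 and 11.2 CPM on PS-MP chow, with PS-MP library 2 highest. Mrpl3 measured 11.9, 6.19 and 11.2 CPM against 7.26, 7.92 and 11.1 CPM. Control library 2 was lowest, and control libraries 1 and 3 were highest. Mrpl18 measured 3.58, 8.57 and 4.86 CPM on normal chow and 6.69, 7.57 and 6.43 CPM on PS-MP chow. Control library 2 was highest here, and the log2 fold change was 0.28, with an interval from -0.51 to 1.08. It was 0.71 without control library 2, with an adjusted p of 0.511 in edgeR, and 0.04 without control library 1. Tcp1, a cytosolic chaperonin subunit that overlaps Mrpl18 on the opposite strand, stood at 79.1, 84.8 and 85.5 CPM on normal chow and 99.4, 99.4 and 95.6 CPM on PS-MP chow; reads of this pair cannot be told apart either.

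Of the large subunit proteins specific to mitochondria, Mrpl39 had the lowest fitted change of all Mrpl genes. It measured 22.5, 18.9 and 18 CPM on normal chow and 12.6, 19.8 and 14.8 CPM on PS-MP chow. PS-MP libraries 1 and 3 were below all controls, and PS-MP library 2 was within their range. The log2 fold change was -0.33 (SE 0.21, adjusted p = 0.969 in edgeR), and leaving out each library in turn gave -0.53 to -0.19. Mrpl54 measured 22.5, 17.1 and 24.6 CPM against 18.5, 17.3 and 19.1 CPM, the same arrangement as Mrpl16. Mrpl41, at 12.7, 14.8 and 18.1 CPM against 17.8, 18.1 and 14.8 CPM, overlapped as well. Mrpl44, a protein with a ribonuclease III fold, measured 21.2, 16.5 and 21.5 CPM on normal chow and 19.8, 17 and 17.6 CPM on PS-MP chow. Mrpl58, a peptidyl-tRNA hydrolase built into the large subunit, measured 28.3, 20.5 and 28.5 CPM against 28.6, 25.9 and 28.8 CPM. In both, PS-MP libraries lay close to control libraries 1 and 3 or between them and control library 2.

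Mrpl38 varied most within a diet. It measured 25.7, 11.8 and 49.7 CPM in control libraries 1 to 3, a span of 4.22-fold, and 51.2, 34.9 and 15.7 CPM on PS-MP chow, a span of 3.27-fold. High and low libraries were found on both diets, and the interval of the log2 fold change ran from -1.2 to 1.65. Only Mrpl18 (2.39-fold in control), Mrpl4 (2.19-fold in control) and Mrps31 (3.7-fold in control) otherwise spanned over 2-fold within a diet, while the other 74 members stayed under it.

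In the small subunit, Mrps34, a mitochondria-specific protein needed for stable small subunit rRNA, had the highest fitted change of all members and did not pass the test. It measured 21.8, 15.6 and 19 CPM on normal chow and 25.8, 40.7 and 24.9 CPM on PS-MP chow, a mean of 18.8 ± 3.13 against 30.5 ± 8.9 CPM (SD, n = 3). All PS-MP libraries were above all controls, and PS-MP library 2 was well above the other 5. The log2 fold change was 0.7 (SE 0.24, adjusted p = 0.869 in edgeR), and 0.43 without PS-MP library 2. Its unadjusted p was no longer under 0.05 without PS-MP library 2, without control library 2 (log2 fold change 0.58), without control library 3 (0.71) or with the replicate number as a block (0.67). Of its neighbours, Nme3 overlaps it on the same strand and was also highest in PS-MP library 2, at 4.47 CPM against 1.65 to 2.34 CPM elsewhere. Mapk8ip3, on the opposite strand, stood at 8.75, 2.92 and 5.48 CPM on normal chow and 3.34, 2.61 and 4.64 CPM on PS-MP chow. Summed markers of 4 cell types were also highest in PS-MP library 2: neutrophil markers at 4.7 CPM, adipocyte markers at 22.3 CPM (2.37 to 12.3 CPM elsewhere), lymphocyte markers at 24.1 CPM (8.27 to 22.7 CPM elsewhere) and stellate cell markers at 350 CPM (237 to 323 CPM elsewhere). Their part in the Mrps34 value was not tested.

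Mrps31 had the lowest fitted change, which rested on 1 library. It measured 5.41, 20 and 6.13 CPM on normal chow and 6.71, 8.72 and 4.88 CPM on PS-MP chow. Control library 2 was far above the other 5, and without it the log2 fold change was 0.23 instead of -0.63. Mrps5, a homologue of bacterial S5 known from work on mouse lifespan, measured 33.1, 29 and 34.9 CPM on normal chow and 34.5, 34.7 and 30.3 CPM on PS-MP chow. Mrps12, which lines the decoding centre, measured 32.3, 25.5 and 31.9 CPM against 27.8, 26.3 and 27.9 CPM. Both overlapped between diets. Mrps21 measured 37.6, 31.7 and 38.4 CPM against 33.6, 30.8 and 33.5 CPM, and Mrps22, whose human counterpart is mutated in a mitochondrial disease, 13.4, 14.3 and 14.5 CPM against 12.1, 15.8 and 13 CPM.

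The 3 homologues of bacterial S18 differ in place: Mrps18a sits in the large subunit, and Mrps18b and Mrps18c in the small. Mrps18a measured 30.5, 23.7 and 29.6 CPM on normal chow and 25.3, 21.9 and 26 CPM on PS-MP chow, with a log2 fold change of -0.2, an SE of 0.15 and an adjusted p of 1.0 in edgeR. Mrps18b measured 30, 23.9 and 32.8 CPM against 30.6, 28.4 and 30.7 CPM. Mrps18c measured 17.8, 24.3 and 25.5 CPM against 18.4, 25.1 and 17.7 CPM. None of the 3 separated the diets. Mrps30, also a large subunit protein in spite of its symbol, measured 26.4, 18.5 and 24.2 CPM against 23.5, 21.6 and 21.5 CPM. Mrps36, now known as a part of the 2-oxoglutarate dehydrogenase complex, measured 9.63, 6.75 and 9.75 CPM against 8.3, 8.21 and 7.53 CPM, with PS-MP inside the control range.

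The 54 members not named by the rule for named genes had fitted log2 fold changes between -0.22 (Mrps6) and 0.13 (Mrpl15), with mean levels between 6.19 and 66.4 CPM, and 30 of them were below zero with TMM. Their adjusted p was 1.0 throughout in edgeR.

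By symbol, 32 of 49 Mrpl and 16 of 29 Mrps genes were below zero with TMM scaling, with medians of -0.032 and -0.012. The difference of the medians was -0.02, and ran from -0.035 to 0.022 when each library was left out. Placed by structure, with Mrps18a and Mrps30 in the large subunit and Mrps36 left out, the medians were -0.036 over 51 and 0.001 over 26 genes. Large subunit proteins with a bacterial homologue had 17 of 29 below zero (median -0.014), and mitochondria-specific ones 14 of 19 (median -0.032). In the small subunit 8 of 16 genes listed as homologues (median -0.005) and 5 of 10 listed as mitochondria-specific (median 0.004) were below zero. The second list holds Mrps18b, itself a homologue of bacterial S18, so the small subunit classes are not exact. Beside these stands a median of 0.017 over all genes tested. Differences between these medians were not tested.

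The clearest pattern in the members was between libraries and not between diets. Control library 2 held the lowest of the 6 values for 46 members (59%), against 20.3% of all genes tested, and control library 3 the highest for 35 (44.9%), against 13.5%. The median deviation of the members from their diet mean on the log2 CPM scale was 0.05, -0.18 and 0.12 in control libraries 1 to 3 and 0.03, 0.0 and -0.04 in PS-MP libraries 1 to 3. For all 17662 genes tested these medians lay between -0.02 and 0.03. Large and small subunit genes shared the shift: in control library 2 their median deviations were -0.17 and -0.2. This is the library with 11.2% of its counts in 18S rRNA, and the part of that share in the shift was not tested.

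Over the 6 libraries, with diet means removed, the median Pearson correlation between members was 0.47 over 3003 pairs, of which 75.1% were positive, and it was near zero over all pairs of tested genes. The points share libraries and depth, so this is a description. Cytosolic ribosomal protein genes and nuclear respiratory chain genes each gave 0.49. Without control library 2 the members' median fell to 0.13, and leaving out any other library gave 0.35 to 0.64. Mrpl12 followed the mean of the other members closely (r = 0.96 over 6 libraries), as did Mrpl14 (0.95). By contrast 8 members had a negative r, from -0.78 for Mrps31 to -0.09 for Mrpl50. Among them were Mrpl18 (-0.72), Mrpl15 (-0.64) and Mrpl4 (-0.53). Of these Mrpl15, a homologue of bacterial L15, measured 23.5, 31.8 and 25.2 CPM on normal chow and 24.3, 31.3 and 32.5 CPM on PS-MP chow, with its highest control value in the library where most members were lowest.

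**Figure D4:**
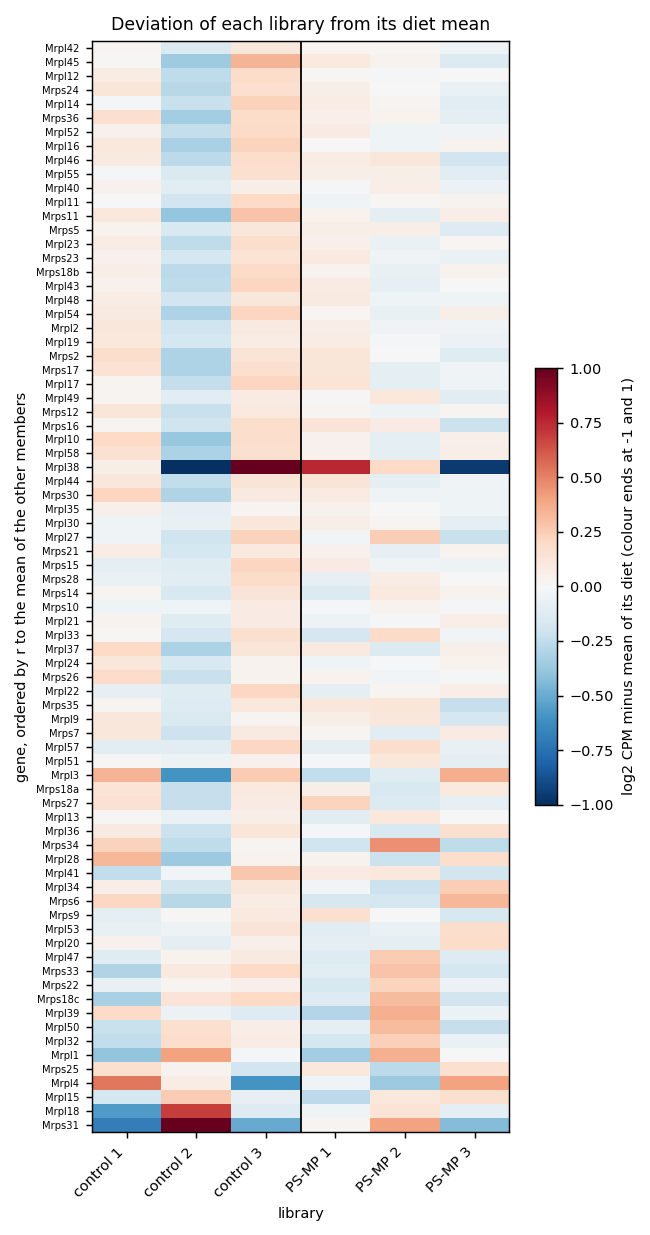
Log2 CPM of each gene minus the mean of its diet, for the 6 libraries in columns and the 78 genes in rows, ordered by their correlation with the mean of the other members. The control 2 column is blue for most genes, with a median of -0.18, while the bottom rows, Mrps31 and Mrpl18, are red there; values beyond 1 in size take the end colours.

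GC content of the members' transcripts ran from 39.6% to 60.6%. Across the 78 genes its Pearson correlation with the deviation from the diet mean was 0.41, -0.4 and 0.17 in control libraries 1 to 3 and 0.32, -0.4 and 0.11 in PS-MP libraries 1 to 3. Genes are not independent replicates, and these values describe the libraries. Control library 2 and PS-MP library 2 shared the negative sign. In control library 2 the 39 members of lower GC had a median deviation of -0.13 and the 39 of higher GC one of -0.22, so both were low there. The median log2 fold change was -0.01 for lower and -0.05 for higher GC with TMM. Over the 13554 tested genes with a GC value (76.7% of all tested, so not a check over all genes) the correlations were 0.32, -0.3 and -0.01 on normal chow and 0.21, -0.34 and 0.13 on PS-MP chow. The sign was the same as in the members in every library but control library 3, so a similar trend was present beyond the members.

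**Figure D5:**
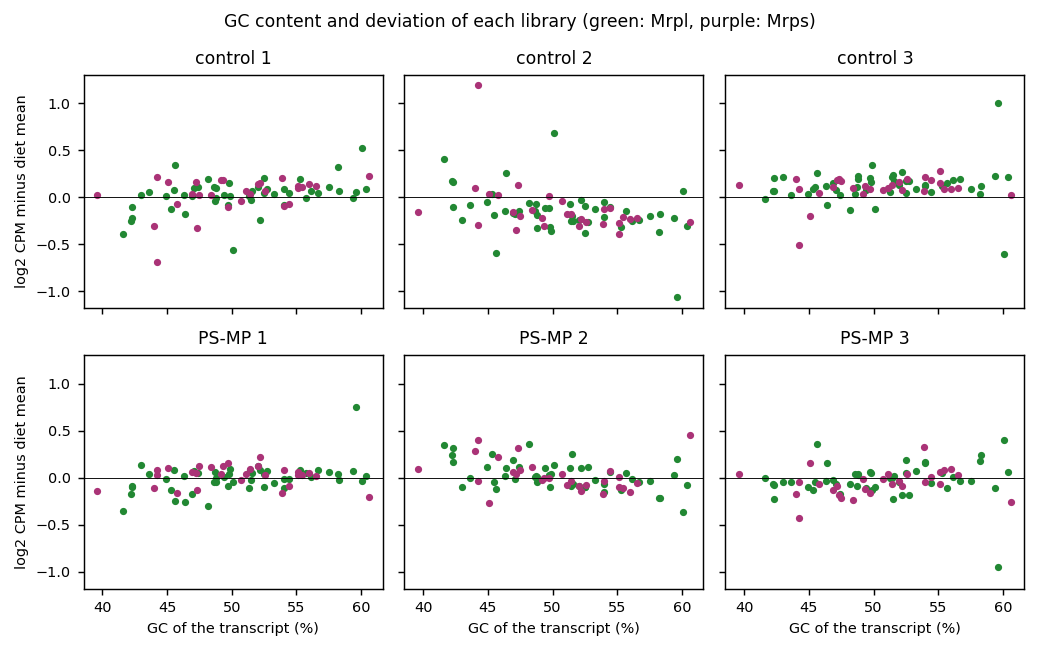
GC content of the transcript in percent (x) against log2 CPM minus the diet mean (y), 1 panel per library and 1 point per gene. Points slope down in control 2 and PS-MP 2 (r = -0.4 in each) and up in control 1 and PS-MP 1 (0.41 and 0.32), and most points of control 2 lie below zero.

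Genes that work with these proteins were counted in lists fixed by function, and 0 genes of any of these lists passed edgeR's test or had an unadjusted p under 0.05. Over all genes tested 0.0113% passed, and in edgeR 2.8% were higher and 2.58% lower in PS-MP at an unadjusted p under 0.05. The 5 mitoribosomal proteins with other symbols (Dap3, Ptcd3, Aurkaip1, Chchd1 and Gadd45gip1) had a median log2 fold change of -0.008. The RNA of the small subunit, mt-Rnr1, measured 3224, 7967 and 3366 CPM on normal chow and 2774, 2831 and 3127 CPM on PS-MP chow, and that of the large subunit, mt-Rnr2, 1948, 11065 and 3636 CPM against 2769, 4740 and 3510 CPM. Control library 2 was highest for both, the reverse of its place for most of the proteins, and the diets did not overlap for mt-Rnr1. The adjusted p was 0.931 for mt-Rnr1 and 1.0 for mt-Rnr2 in edgeR. These RNAs carry at most short A tails, unlike cytosolic messages.

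The 15 translation factors had a median of -0.007. Gfm1, the elongation factor that moves the ribosome along the message, measured 78.3, 69.8 and 80 CPM on normal chow and 62.4, 62.3 and 65.5 CPM on PS-MP chow. All PS-MP libraries were below all controls, at a log2 fold change of -0.26, with an SE of 0.11 and an adjusted p of 0.923 in edgeR. The 25 assembly and rRNA modification factors had a median of -0.061. Mrm2, an rRNA methyltransferase, was at -0.31 and Ngrn, an rRNA-binding protein, at 0.25, with adjusted p of 0.955 and 0.953 in edgeR. The diets did not overlap for either, and of the 25 factors 1 was higher and 1 lower without overlap. Over all genes tested, 6.24% were higher and 4.99% lower in PS-MP without overlap. Such examples were picked among the genes of smallest p. The 16 genes for expression of the mitochondrial genome and its nuclear regulators had a median of 0.059. Gabpb1, a subunit of GABP, measured 4.97, 5.73 and 5.32 CPM on normal chow and 6.42, 6.43 and 6.4 CPM on PS-MP chow (log2 fold change 0.26, adjusted p = 0.965 in edgeR). Its DNA-binding partner Gabpa ranged from 13.2 to 40.6 CPM on normal chow and from 20.5 to 42.1 CPM on PS-MP chow ; the diets overlapped.

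Set side by side, the members stood between the cytosolic ribosomal protein genes, with a median log2 fold change of 0.15 and 4 of 85 tested below zero, and the nuclear subunits of the respiratory chain and ATP synthase, with -0.093 and 71 of 79 below zero with TMM. Each of these lists also had 0 genes called in edgeR, where 0.0113% of all genes tested were called. The differences between lists were not tested.

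Counting could mix some members with other genes. In GENCODE vM21 (GRCm38), 36 of the 78 members overlap a gene on the opposite strand, and for 25 of them that gene was itself tested. Mrpl46 and Mrps11 overlap each other in opposite directions: Mrps11 measured 17.4, 12.3 and 19.7 CPM on normal chow and 15.1, 13.9 and 15.5 CPM on PS-MP chow, and Mrpl46 15.3, 12 and 16.2 CPM against 14.9, 15.3 and 12.4 CPM. Control library 2 was the lowest library for both. Named pseudogenes drew fewer reads than their namesakes: Mrpl23-ps1 had 103 to 339 counts per library, against 1194 to 2797 for Mrpl23. The other 5 had at most 50 counts, against 260 or more for every member.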

How the data were processed

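Liver RNA was measured in 6 libraries, 3 per diet. Per the labels' protocols, libraries were poly(A)-selected and directional. The submitters' processing notes name the build GRCm39 and bcl2fastq; neither they nor the labels give aligner, counter, annotation or strand setting. The deposited values are raw counts per gene by the authors. From these counts, edgeR 4.0.16 (R 4.3.3; TMM, filterByExpr, quasi-likelihood test, 6 libraries, Benjamini-Hochberg over 17662 genes) gave the main results; 95% intervals used 6.63 moderated degrees of freedom. DESeq2 1.42.0 and limma 3.58.1 were alternatives, beside other scalings and filters and leaving out each library. The script was tested on simulated data. CPM values are edgeR's. Coding length is the longest coding sequence in GENCODE vM21 (GRCm38, used for lengths, GC and overlaps, matched by symbol), in place of the RefSeq protein lengths first planned. Named with values were the 5 members of smallest p in each direction, those with an unadjusted p under 0.05, the 3 highest and 3 lowest per coding kb, those spanning over 4-fold within a diet, and 12 fixed by function; of the other lists, examples were chosen among those of smallest p. Mrpl4, Mrpl15, Mrpl46, Mrps11, Mrps6 and Gabpa were named after their values were seen. The members and lists were chosen with earlier results of these data known.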

Additional observations from a re-analysis of the deposited data

How the results depend on the processing

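The alternatives were 3 other scalings, 3 filters or gene sets, DESeq2, limma-voom, robust dispersions and the replicate block. An adjusted p under 0.1 and each library left out were also tried. In every run 0 members were called. Over all genes tested, DESeq2 called 165 genes, and the other runs at an adjusted p under 0.05 called 0 to 4. With so few genes called anywhere, the count of 0 members says little about the members. Scaling by totals alone gave a members' median of 0.181 with 6 below zero, beside 0.232 for all genes, and put Mrpl12 at 0.19, Mrps22 at 0.17, Mrpl14 at 0.16, Mrps30 at 0.15, Mrps36 at 0.09, Mrpl44, Mrps12 and Mrps18c at 0.08, Mrps21 at 0.07, Mrpl3 at 0.04 and Mrps18a at 0.01. Mrpl12 was also 0.01 with upper quartile scaling and 0.00 with a 1 CPM filter. Of the 42 members that overlap no gene on the opposite strand, an alternative added after seeing the data, 27 were below zero, the smaller number of genes setting that count. Leaving out each library gave 29 to 65 members below zero (29 without control library 3, 65 without control library 2) and medians of -0.122 to 0.031; the cause was not tested. In those fits Mrpl12 ran from -0.13 to 0.08, Mrpl14 from -0.16 to 0.07, Mrpl3 from -0.40 to 0.01, Mrpl38 from -0.21 to 0.86, Mrpl58 from -0.04 to 0.19, Mrps5 from -0.04 to 0.10, Mrps18b from -0.07 to 0.15, Mrps22 from -0.17 to 0.03, Mrps30 from -0.19 to 0.06 and Mrps31 from -0.94 to 0.23. Over 384 values of 24 named members under 16 alternatives, 25 had the other sign. Between libraries of equal replicate number, r was 0.108, 0.139 and -0.128, against -0.185 to 0.097 between libraries of unequal number. Whether the libraries were paired cannot be decided from 3 libraries per diet. With the replicate number as a block, the members' median was -0.022 with 47 below zero. Genes called over the whole table then went from 2 to 0. With 3 libraries per diet, small changes of single members could not be detected.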
